A study of Mus musculus with 3 samples.

Results

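In pancreatic epithelium of the mouse embryo, 1227 genes had H3K36me3 signal over the gene body (GB) that was low at E11.5 and higher at each later stage. They are 5.05% of the 24318 genes with an identifier and were chosen by the deposited GB values alone. A gene was taken where GB was above 0 in all 3 libraries and at most 0.005 at E11.5. GB also had to be at least 25% higher at E13.5 than at E11.5 and at least 25% higher again at E15.5. Its E15.5 value had to be at least 2 times the E11.5 value and at least 0.006.

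The study profiled H3K36me3 by CUT&Tag, in which an antibody directs a transposase to cut and tag the DNA beside a histone mark. Pancreatic epithelial cells came from wild-type C57BL/6 embryos at the stages E11.5, E13.5 and E15.5 (days after conception), and flow cytometry selected them through EpCAM, a surface protein of epithelia. The labels give 1 library per stage, so every value below is a size in these libraries, with no test and no spread between embryos. In such sorted bulk cells, more cells that carry the mark and more mark per cell cannot be told apart.

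H3K36me3 is laid down in the wake of elongating RNA polymerase II, mainly by the methyltransferase SETD2, and therefore lies over the bodies of transcribed genes rather than over their promoters. In the mouse pancreas the earliest of these stages holds mostly multipotent progenitors, and by the last stage cells committed to acinar, duct and endocrine fates have appeared.

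The deposited columns are headed PR, GB and SE, and the headers do not spell these out. GB is read here as the gene body because its window, recovered from the values, differed in length from gene to gene. PR is read here as a window of 6000 positions, and SE as 12000 positions that include the PR window, although no source states this. The other 6000 positions of the SE window were computed by subtraction and are called outer SE. All values are mean signal per position in the deposited units. Some rising genes had the same PR, SE and outer SE values as another rising gene, so the same signal can enter a count more than once. How many did so was not counted. The values chose the genes through GB, so GB is described without any inference, and PR, SE and outer SE come from the same libraries and are descriptions too.

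No gene could be named. The reference table paired 0 of the Ensembl identifiers with a symbol, so the 15 gene lists prepared for pancreatic cell types, pathways and other lineages were not used. For the same reason the defining markers of epithelium, mesenchyme, blood and other cells were not analysed here, and no promoter sequence was matched. Identifiers are printed for 2 genes only.

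Of the 24318 identified genes, 18106 had GB above 0 in all 3 libraries and 8839 of these were at most 0.005 at E11.5. From those 8839 genes, which are called the low-start genes here, the first step kept 4622, the second step 1503, the whole span 1433 and the bound at E15.5 the final 1227. The rising genes are thus 13.9% of the low-start genes, and the 7612 remaining low-start genes serve as their nearest comparison. The scaling between libraries is not given in any source, and the number of genes depends on it. After dividing each library by its mean GB the rule found 662 genes, and after dividing by its mean PR it found 369.

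GB of the rising genes at E11.5 ran from 2.17e-05 to 0.00499 with a median of 0.00224. At E13.5 it ran from 0.000262 to 0.0552 with a median of 0.00589. At E15.5 it ran from 0.006001 to 0.437 with a median of 0.0146. The E11.5 median lay below the median of all identified genes, 0.00432, and the E15.5 median lay well above the corresponding 0.00371. The 7612 other low-start genes had GB medians of 0.00307, 0.00351 and 0.00292 in stage order. Their medians therefore stayed near one level where those of the rising genes, by their choice, did not. Single genes among the other low-start genes varied widely, with GB at E15.5 from 1.62e-06 to 0.196.

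Within the set the sizes varied widely. The ratio of GB at E15.5 to GB at E11.5 had a median of 7.24, quartiles of 3.75 and 19.6, and a maximum of 2679. It was at least 4 in 877 genes, at least 10 in 494 and under 3 in 164. The first step had a median ratio of 2.53 and the second 2.30, and the second step was the larger one in 514 genes, or 41.9%. The rule asked for a gain in each interval, so these step sizes describe the choice. The GB values, each a mean per position, were also added over identified genes without weighting by body length. The rising genes made up 1.82% of that sum at E11.5, then 6.20% at E13.5 and finally 12.0% at E15.5. This is not their share of the whole gene-body signal, which also depends on body length and was not computed.

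Genes next to the bounds had close values on both sides. The smallest ratio over the span inside the bound was 2.004 and the largest outside it 1.988. The lowest GB at E15.5 inside was 0.006001 and the highest outside was 0.005991. The highest GB at E11.5 inside was 0.00499 and the lowest outside 0.005001.

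**Figure D1:**
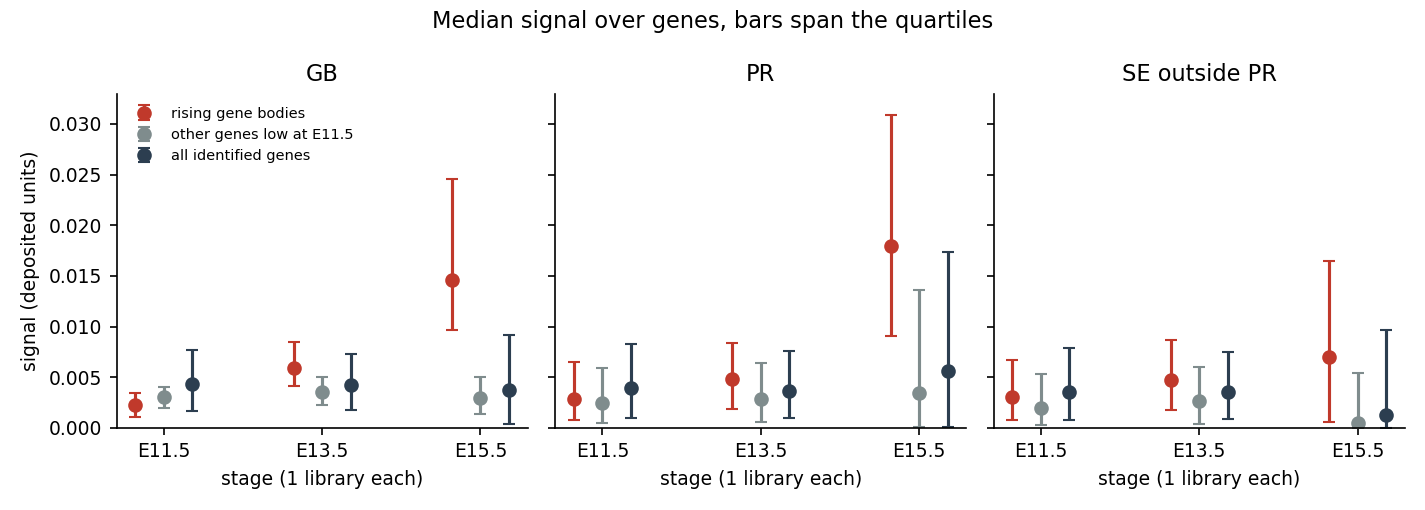
Median signal per position (points, deposited units) with quartiles over genes (bars) by stage for GB, PR and outer SE, in the 1227 rising genes, the 7612 other low-start genes and all 24318 identified genes. GB of the rising genes moves upward by choice, and their PR has a median of 0.0180 at E15.5 against 0.00342 in the other low-start genes.

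The rising genes were short. A GB window length was recovered for all 1227 of them, with a median of 10002 positions and quartiles of 4960.5 and 20731, whereas the other low-start genes had a median of 35926. Windows under 6000 positions made up 30.8% of the rising genes and 7.86% of the other low-start genes. All identified genes with a recovered length lay between, with a median of 18943 positions and 19.7% under 6000, as did the falling genes found by the mirrored rule with the stages exchanged, with 17.0% under 6000. Windows of at least 50000 positions made up 5.54% of the rising genes and 40.5% of the other low-start genes. The share of low-start genes that met the rule was 42.8% below 3000 positions, 36.9% from 3000 to 6000, 28.2% from 6000 to 12000, 12.9% from 12000 to 50000 and 2.16% at 50000 or more.

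Short windows also carried little signal at the start. Summed signal moves in whole multiples of 1 step per library, which is treated here as 1 position covered once, although no source states this. At E11.5 the rising genes had a median summed GB of 120 steps, and 543 of them, or 44.3%, had under 100. At E13.5 the median was 372 steps with 10.4% under 100, and at E15.5 it was 982 steps with 0.244% under 100. All 130 rising genes with windows under 3000 positions were under 100 steps at E11.5, and none of the 68 with at least 50000 positions was. A sequenced fragment covers many neighbouring positions. On this reading of a step, the E11.5 median of 120 steps rests on very little DNA, and the lower quartile of 37.5 on less. The size of the ratio followed length, with a median of 36.1 in windows under 3000 positions, 8.34 from 6000 to 12000 and 2.82 at 50000 or more. Across the 1227 genes the Spearman correlation of length with the ratio was -0.72, where both numbers come from the same deposited GB values. How much of the gain in short genes is counting error was not tested. With at least 100 steps required at E11.5, 684 genes met the rule.

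**Figure D2:**
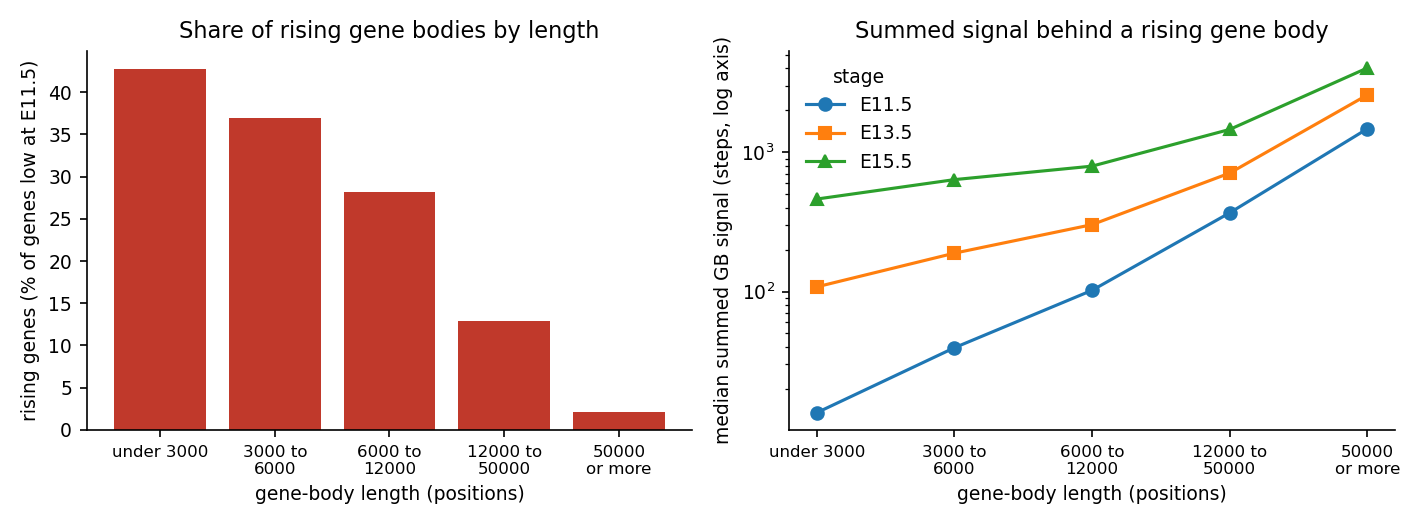
Left, share of low-start genes that met the rising rule (percent, bars) by gene-body length in positions. Right, median summed GB signal of the rising genes in steps on a log axis, by length and stage. The share goes from 42.8% in the shortest class to 2.16% in the longest, and the E15.5 median from 461 to 4021 steps.

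PR was higher at E15.5 in most of the rising genes. PR at E11.5 ran from 0 to 0.0246 with a median of 0.00286, at E13.5 from 0 to 0.0404 with a median of 0.00483, and at E15.5 from 0 to 0.408 with a median of 0.0180. At E11.5 the median was close to the 0.00248 of the other low-start genes, and the ranges of the stages overlapped throughout. Of the 1103 rising genes at or above a floor of 0.00407 in the higher library, 875 had PR at least 2-fold higher at E15.5 than at E11.5 on the scale of log2(value + 0.001). That is 79.3% of them, against 50.0% of all identified genes above the floor and 55.3% of the other low-start genes. PR was at least 2-fold lower in 80 rising genes, or 7.25%, against 26.0% of all identified genes. The remaining 124 rising genes were under the floor at both stages and were not counted. The E11.5 median of 0.00286 was itself under the floor, so many of these ratios start from a low value. PR was not converted to steps, so how little DNA lies behind low PR values is not given here. The median log2 PR ratio over all 1227 genes was 2.20, against 0.26 over all identified genes and 0.22 over the other low-start genes. PR was 0 in at least 1 library in 185 rising genes, or 15.1%, against 36.9% of the other low-start genes. Dividing each library by its mean PR moved the median log2 PR ratio over all identified genes to -0.23 and that of the same 1227 genes to 1.26.

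On the deposited scale most of the PR difference lay in the second interval, although GB moved in both. All identified genes also had their larger PR difference there. Over all of them mean PR was 0.00552, 0.00506 and 0.0118 in stage order, and PR was 0 in 7.59%, 11.9% and 22.1%. The E15.5 library thus differed as a whole, and its part in the second-interval PR difference of the rising genes was not tested. By rank within a library the gains were similar in each interval, with median PR percentiles of 42.3, 58.4 and 76.2 in stage order. From E11.5 to E13.5, PR was at least 2-fold higher in 383 of 883 rising genes above the floor, or 43.4%, against 28.8% of all identified genes and 36.7% of the other low-start genes. From E13.5 to E15.5 it was at least 2-fold higher in 805 of 1121, or 71.8%, against 52.2% and 51.2%. Their median log2 PR ratios were 0.49 and 1.66 for these intervals, and those of all identified genes were -0.05 and 0.37. PR was higher in both steps in 584 rising genes, or 47.6%, against 21.8% of all identified genes. In 359 rising genes PR was lower at E13.5 than at E11.5 and yet higher at E15.5 than at E11.5. That is 29.3% of them, against 21.3% of the other low-start genes.

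SE, whose window includes PR, behaved likewise. Its medians in stage order were 0.00372, 0.00525 and 0.0142. At or above a floor of 0.00460 it was at least 2-fold higher at E15.5 than at E11.5 in 870 of 1131 rising genes, or 76.9%, against 42.7% of all identified genes. It was at least 2-fold lower in 26, or 2.30%, against 19.7%. SE was higher in both steps in 651 rising genes, or 53.1%, against 22.6%.

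The outer SE positions set the rising genes apart in direction. Over all identified genes outer SE was more often lower than higher at E15.5, with 40.9% at least 2-fold lower than at E11.5 and 33.9% at least 2-fold higher. Among the 955 rising genes above its floor of 0.00302 the balance was turned, with 537, or 56.2%, higher and 194, or 20.3%, lower. Their median outer SE was 0.00308, 0.00469 and 0.00695 in stage order, whereas the other low-start genes had 0.00200, 0.00262 and 0.000435. The median log2 ratio for the span was 0.69 in the rising genes, -0.22 over all identified genes and -0.22 in the other low-start genes. By interval, 39.1% and 44.7% of rising genes above the floor were at least 2-fold higher, against 30.3% and 34.3% of all identified genes. The other low-start genes had 37.9% and 30.7%, so in the first interval the rising genes were close to them. Outer SE was higher in both steps in 333 rising genes, or 27.1%, against 14.8% of all identified genes. Outer SE was 0, or set to 0, at E15.5 in 17.4% of rising genes and 38.8% of the other low-start genes. Whether the PR, SE and GB windows share positions is not stated, and shared positions would tie these columns together, most of all in short genes. Dividing each library by its mean PR moved the median log2 ratio of outer SE over the same 1227 genes to -0.01, just below 0, while that of all identified genes moved to -0.81.

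PR and outer SE did not always move together. Both were at least 2-fold higher in 361 rising genes, or 29.4%, PR alone in 514, or 41.9%, outer SE alone in 176 and neither in 176, or 14.3% each. In the other low-start genes the shares were 8.53% for both, 27.1% for PR alone, 11.8% for outer SE alone and 52.6% for neither. The share with outer SE alone was thus close in the compared sets. GB, PR and outer SE were all higher in both steps in 11.6% of rising genes and 0.775% of the other low-start genes. The rule required the GB part in every rising gene, and the other low-start genes are those that failed it. The shares therefore cannot be compared as a result about PR and outer SE, and the pattern without GB was not counted.

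Ranks within a library do not depend on its scale, and those of the rising genes moved the same way. The genes themselves were chosen on the deposited scale. Of the 1227, 641 still met the rule after dividing by mean GB and 356 by mean PR. With median GB 1108 did, and with mean GB over long bodies 1227 did. In PR the median rising gene stood at percentile 42.3 of all identified genes at E11.5, then 58.4 at E13.5 and finally 76.2 at E15.5. The other low-start genes stood at 39.2, 42.9 and 44.0. In SE the rising genes stood at percentiles 42.3, 60.7 and 77.2, and in outer SE at 46.7, 58.5 and 68.9. The rising genes held 3.89% of summed PR at E11.5, then 5.90% at E13.5 and finally 9.70% at E15.5, while they are 5.05% of the genes. At E15.5, 23.6% of them were in the top 10% of genes by PR, against 4.56% at E11.5.

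A mirrored rule, with E11.5 and E15.5 exchanged, found 934 falling genes in the same libraries on the deposited scale. This number also depends on the scaling. It was 1423 after dividing by mean GB and 2097 by mean PR, where 662 and 369 genes were rising. It was 1001 with median GB and 892 with mean GB over long bodies, where 1118 and 1264 were rising. PR of the 934 falling genes moved the other way, from percentile 70.7 at E11.5 through 53.7 to 39.5 at E15.5. PR of the falling genes was at least 2-fold higher at E15.5 in 20.9% and at least 2-fold lower in 51.9%, against 79.3% and 7.25% in the rising genes. The falling genes were also longer, with a median of 14270 positions. This difference between the sets was not tested, since each stage has 1 library.

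**Figure D3:**
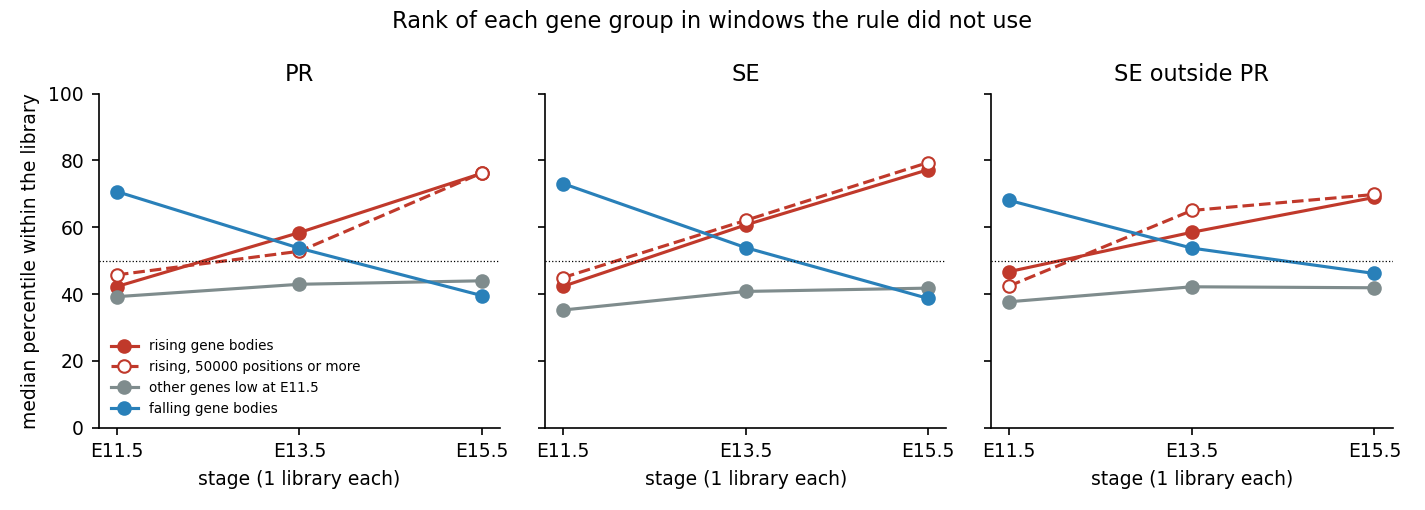
Median percentile of each gene group within a library by stage, for PR, SE and outer SE, with 50 marking the median of all identified genes. The dashed line gives rising genes of 50000 positions or more, ranked among genes of that length. Rising genes go from percentile 42.3 to 76.2 in PR, falling genes from 70.7 to 39.5, and the other low-start genes from 39.2 to 44.0.

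Rising genes with bodies of at least 50000 positions give the fullest measurement, since a 6000-position window is at most 12% of such a body. There were 68 of them, among 3150 low-start genes of that length. Their GB ran from 0.000742 to 0.00497 with a median of 0.00323 at E11.5, from 0.00286 to 0.0114 with a median of 0.00503 at E13.5, and from 0.006001 to 0.0280 with a median of 0.00865 at E15.5. The ratio over the span ran from 2.004 to 9.33 with a median of 2.82, so gains of 10-fold or more were absent here. Each of the 68 had at least 100 steps of summed GB at E11.5.

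PR of these long genes had medians of 0.00269, 0.00346 and 0.0178 in stage order. It was at least 2-fold higher over the span in 42 of 57 above the floor, or 73.7%, against 54.8% of all identified genes of that length. The median log2 PR ratio was 2.07, against 0.45 over all identified genes of that length and 0.20 in the 3082 other low-start genes of that length. PR was higher in both steps in 28 of the 68, or 41.2%, against 23.4%. Outer SE was at least 2-fold higher in 28 of 49 above its floor, or 57.1%, against 33.0%. The median percentile of PR among genes of that length was 45.8, 52.8 and 76.3 in stage order, and that of outer SE was 42.4, 65.0 and 69.8. PR thus gained rank mainly after E13.5 and outer SE mainly before it. Outer SE was higher in both steps in 17.6% of the 68, against 12.8% of all identified genes of that length, a small share on both sides.

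**Figure D4:**
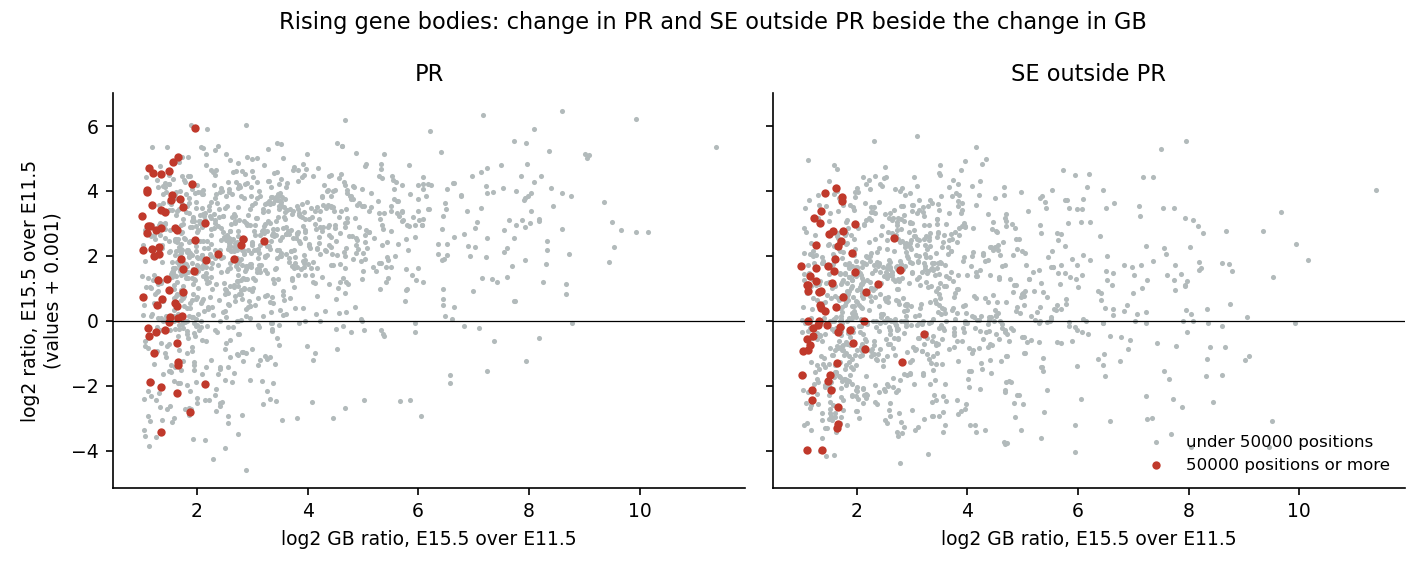
Log2 ratio of PR (left) and outer SE (right) at E15.5 over E11.5, after adding 0.001, against the log2 ratio of GB, with 1 point per rising gene and genes of 50000 positions or more in red. Most points lie above 0 in PR, and the 68 long genes sit at GB ratios from 2.004 to 9.33.

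The 15 long genes with the largest GB ratio had bodies of 50067 to 116865 positions and ratios of 3.38 to 9.33. Their PR ran from 0 to 0.00912 at E11.5, from 0.000112 to 0.0114 at E13.5 and from 0 to 0.0602 at E15.5. PR was at least 2-fold higher over the span in 13 of the 15, lower in the other 2, and higher in both steps in 7. Of all identified genes of that length, 54.8% of those above the floor were at least 2-fold higher, and 23.4% were higher in both steps. The longest of the 15, with 116865 positions, had GB of 0.00440, 0.00821 and 0.0280 in stage order. Its PR was 0.00443, 0.00458 and 0.0194, and its outer SE 0.00545, 0.0126 and 0.0366. Every column of this gene was highest at E15.5, with the larger step after E13.5. In contrast, a gene of 81214 positions had GB of 0.00179, 0.00439 and 0.00658 but PR of 0.00664, 0.0114 and 8.17e-05. Its PR at E15.5 was under the PR floor of 0.00407, where little DNA may lie behind a value, while its body signal was highest there.

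**Figure D5:**
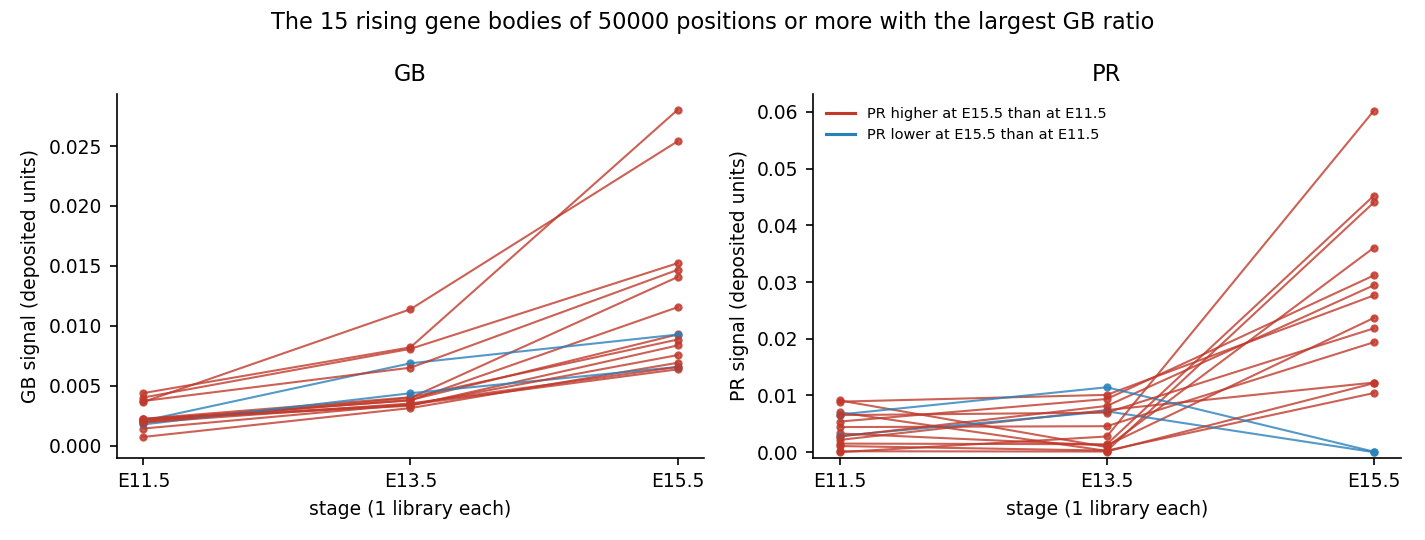
GB (left) and PR (right) signal per position by stage for the 15 rising genes of at least 50000 positions with the largest GB ratio, 1 line per gene, with the 2 genes whose PR was lower at E15.5 than at E11.5 in blue. GB climbs at each step by choice, whereas PR stays at or below 0.0114 through E13.5 and reaches up to 0.0602 at E15.5.

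ENSMUSG00000030236 had the largest ratio among the long genes. Its body of 57129 positions had GB of 0.000742 at E11.5, then 0.00315 at E13.5 and finally 0.00692 at E15.5, a ratio of 9.33. The summed signal behind these values was 262, 1074 and 2428 steps. With a step read as 1 position covered once, 262 steps over a body of this length are little DNA too. PR of this gene was 0.00108, 0.000278 and 0.0104 in stage order. It was lowest at E13.5, but the E11.5 and E13.5 values were both under the PR floor of 0.00407. Its outer SE was 0.000323, 0.000838 and 0, all under the outer SE floor of 0.00302. By PR it stood at percentile 26.3, 17.0 and 60.9 of identified genes.

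ENSMUSG00000038418 had the highest GB of the rising genes at E15.5. Its body of 3750 positions had GB of 0.00302 at E11.5, then 0.0334 at E13.5 and finally 0.437 at E15.5, a ratio of 145. The summed signal was 70, 748 and 10062 steps. PR was 0.00340, 0.0297 and 0.353, outer SE was 0.00890, 0.0160 and 0.212, and SE was 0.00615, 0.0229 and 0.283. All of these columns were higher at each later stage. By PR the gene stood at percentile 46.3 at E11.5, then 99.8 at E13.5 and finally 99.99 at E15.5.

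The 10 rising genes with the highest GB at E15.5 were all short, with bodies of 477 to 4291 positions. Their GB at E15.5 ran from 0.122 to 0.437, and their summed signal at E11.5 from 1 to 70 steps. PR was at least 2-fold higher over the span in all 10 and higher in both steps in 9, with values of 0.000108 to 0.0114 at E11.5 and 0.0263 to 0.408 at E15.5. The largest ratio of all, 2679, belonged to a body of 4291 positions with GB of 0.000151, 0.00921 and 0.406, which had 4 steps of signal at E11.5. Its PR was 0.00545, 0.0151 and 0.260, a smaller difference than in GB but in the same order. In the wider set of 90 rising genes with GB of at least 0.05 at E15.5, the median length was 2931 positions, and PR was at least 2-fold higher in 88. In the 334 with GB under 0.01 at E15.5 the median length was 19756.5 positions, and PR was at least 2-fold higher in 188 of 274 above the floor, or 68.6%. Over all identified genes PR was at least 2-fold higher in 50.0% of those above the floor and higher in both steps in 21.8%. The 2-fold share in the other low-start genes was 57.9% below 3000 positions and 54.5% from 3000 to 6000. These groups were cut by GB at E15.5, a value that the rule used.

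PR went against GB in the 80 rising genes whose PR was at least 2-fold lower at E15.5 than at E11.5. Their median GB was 0.00273, 0.00566 and 0.0102 in stage order, close to the set as a whole at the first stages and lower at the last. Their median PR was 0.00737, 0.00396 and 0.000327. Their median outer SE was 0.00205, 0.00449 and 0.01002, so outer SE moved in the order of GB while PR moved in the opposite order. Their bodies had a median of 14898 positions, and 12.5% were under 6000, so they were longer than the 875 genes with higher PR, whose median was 8783. They were grouped after their PR values were seen, and no test was made of them.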

How the data were processed

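H3K36me3 CUT&Tag signal was analysed in 3 libraries, 1 per stage. Bowtie2 2.4.2 and the mouse build mm10 are named, per the submitters' processing notes. The authors deposited, per the file headers, 25493 rows of signal in the columns PR, GB and SE. Filters, scaling and gene models are not given in the sources used here. Rows without identifier, 1175 in number, were left out. Depth per library is unknown.

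Files were joined on the identifier. The step of each library (0.16188, 0.16743 and 0.16292 in stage order) was found from PR and SE, where 100.0% of values above 0 were whole multiples within 0.05 steps. The GB length was the smallest at which every library above 0 gave whole steps. Values under 0.0001 are deposited with 3 digits, and the search allowed for that. Ratios of PR, SE and outer SE used log2(value + 0.001), and floors were medians over genes and libraries. Scripts were tested on simulated data (Python 3.11.15, numpy 2.4.6, pandas 2.3.3, scipy 1.17.1).

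The genes, lists and rules were chosen with earlier results of these data known. The naming rule took listed genes, the 15 long genes with the largest ratio, the 10 with the highest GB at E15.5 and those nearest the bounds. Without names, its exclusion of predicted genes was not applied, and at most 2 identifiers are printed. Alternatives changed the scale, length, steps, bounds, pseudocount, floor and fold.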

Additional observations from a re-analysis of the deposited data

How the results depend on the processing

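Of 104 recomputed counts, shares, medians and means of the rising genes, 95 stayed within 1.5 times the main value (median ratios compared after undoing the log2), and no median ratio changed sign in the set of genes found under each alternative. The number of genes, 1227, became 68 with bodies of at least 50000 positions, 528 with at least 12000, 662 after dividing by mean GB, 369 after dividing by mean PR and 684 with at least 100 steps at E11.5. Fewer genes could qualify in the length and step settings by construction. The median log2 ratios of PR and SE, 2.20 and 1.73, became 1.496 and 1.13 with a pseudocount of 0.005, which shrinks ratios by construction. That of SE became 1.12 after dividing by mean PR. The median log2 ratio of outer SE, 0.69, became 0.37 with that pseudocount and 0.26 after dividing by mean PR, which are moves within the 1.5 times only when the log2 is undone. The share with outer SE higher in both steps went from 27.1% to 17.6% in bodies of at least 50000 positions, and the cause was not tested. The share with PR at least 2-fold higher ran from 72.4% to 81.3% over the alternatives that kept this fold, and 84.4% were at least 1.5-fold higher. Among these alternatives, the matching share of all identified genes was computed only for long genes, as 54.8%. Elsewhere this range cannot show whether the excess over all identified genes held. Median log2 PR ratios of the genes found and of all identified genes were 2.08 and 0 after dividing by mean GB. They were 1.78 and -0.23 with mean PR, 2.14 and 0.18 with median GB, and 2.22 and 0.27 with mean GB over long bodies. Divisions by mean GB, by mean GB over long bodies and by mean PR, the limit on steps and outer SE with its alternatives were added after seeing the data. Overlap with the gene lists was not run for lack of names. With no known depth and no replicates, no error could be set beside these values. No paired analysis was possible because there is a single library for every stage.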
